A study of Oryzias latipes with 4 samples.

Results

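The genes described here are those of the medaka brain that encode receptors for dopamine, serotonin (5-hydroxytryptamine, 5-HT), noradrenaline and adrenaline, histamine, acetylcholine and the trace amines. They were chosen by the words of the deposited protein descriptions, using 7 phrases such as dopamine receptor and muscarinic acetylcholine receptor. The phrases use no measured value, though they were set with earlier results of these data known. The phrases found 119 of the 20915 gene names in the table. Of these, 118 encode receptors or receptor subunits, and the other is grk3, whose description, beta-adrenergic receptor kinase 2, holds the words but names an enzyme. Descriptions in which a space had been doubled were read as if it were single, since a literal search found 113 of the genes. The receptors comprised 11 for dopamine, 15 G protein-coupled receptors and 16 channel subunits for serotonin, 17 adrenergic receptors, 6 for histamine, 7 muscarinic and 22 nicotinic genes for acetylcholine, and 24 trace amine-associated receptors.

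RNA was sequenced from female medaka (Oryzias latipes), a small teleost that breeds under long days. All fish were first kept under short days (SD), then some remained there while others were transferred to long days (LD), and brains were collected 16 h later from 6 fish per condition. Hypothalamus, pituitary and the ventral part of the telencephalon were dissected as a block. Each of the 2 groups had 2 libraries, named SD 1, SD 2, LD 1 and LD 2. Fish strain, age and the hours of light are not given in the labels. The labels do not say which fish went into which library, so p-values reflect the spread between libraries only, and that spread may be technical. Because the tissue is a mixture, fewer cells that carry a receptor and less of its RNA per cell cannot be told apart.

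Amine and acetylcholine receptors set how neurons and pituitary cells respond to modulators that a few small groups of neurons release over wide areas. Most are G protein-coupled. The D1 family of dopamine receptors, beta-adrenergic receptors, the serotonin receptors 5-HT4, 5-HT6 and 5-HT7 and the histamine receptor H2 stimulate adenylate cyclase. The D2 family, alpha-2 adrenergic, 5-HT1, H3, M2 and M4 receptors inhibit it, while alpha-1 adrenergic, 5-HT2, H1, M1, M3 and M5 receptors act through phospholipase C. Nicotinic receptors and 5-HT3 receptors differ from all of these in being ion channels built of several subunits. In several teleosts dopamine acts through D2 receptors on the pituitary to hold back gonadotropin release, and in birds and mammals day length alters gonadal activity by way of the hypothalamus.

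Values are FPKM (fragments per kilobase, scaled to the mapped total), summed over the rows of a gene in the deposited table. A gene was tested where its mean over the 4 libraries was at least 1 FPKM, which held for 61 receptors and for grk3. Of the other receptors, 34 were above 0 in some library but below that mean, and 23 were listed at 0 in all 4. The genes nearest to this limit are named for their place beside it, after their values were seen. On the tested side they were htr3b, at a mean of 1.06 FPKM, and adra1d, at 1.24. Just outside it were the nicotinic alpha-10-like gene LOC101157879, at 0.919, and the 5-HT3A-like gene LOC101164994, at 0.812.

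No receptor gene differed between the groups past the threshold. Testing log2(FPKM + 1) with limma over all 17252 genes and unnamed features together, with Benjamini-Hochberg adjustment, 0 of the 61 receptors and 0 of the 62 tested members had an adjusted p under 0.05, where 0.0116% of the 17252 did. Adjusted p-values of the receptors ran from 0.673 to 0.986. At an unadjusted p under 0.05 there were 4 receptors, beside 6.32% of everything tested. In 3 of them LD was higher, as in 2.54% of everything tested, and in 1 lower, as in 3.79%. Those 4 were a 5-HT3A channel gene, the muscarinic M3 gene, an alpha-2Db adrenergic gene and htr2b.

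Differences between group means (LD minus SD) ran from -0.69 to 1.10 on the log2(FPKM + 1) scale, with a median of -0.03 over the 61 receptors and -0.01 over everything tested. The difference was above 0 for 28 receptors and below 0 for 33, where 53.7% of everything tested lay below 0. For 17 receptors both LD values were higher than both SD values, as for 16.3% of everything tested, and for 12 both were lower, as for 20.8%. The groups therefore did not overlap for 29 receptors (47.5%), against 37.1% of everything tested. For 18 of the 61 the difference between group means exceeded both differences between libraries of a group, which held for 24.9% of everything tested. The 95% interval of a receptor's difference had a median half-width of 0.39, against 0.29 over everything tested. These intervals are not adjusted for the number of genes, and receptors with differences of 0.41 to 1.10 did not pass the adjusted threshold.

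**Figure D1:**
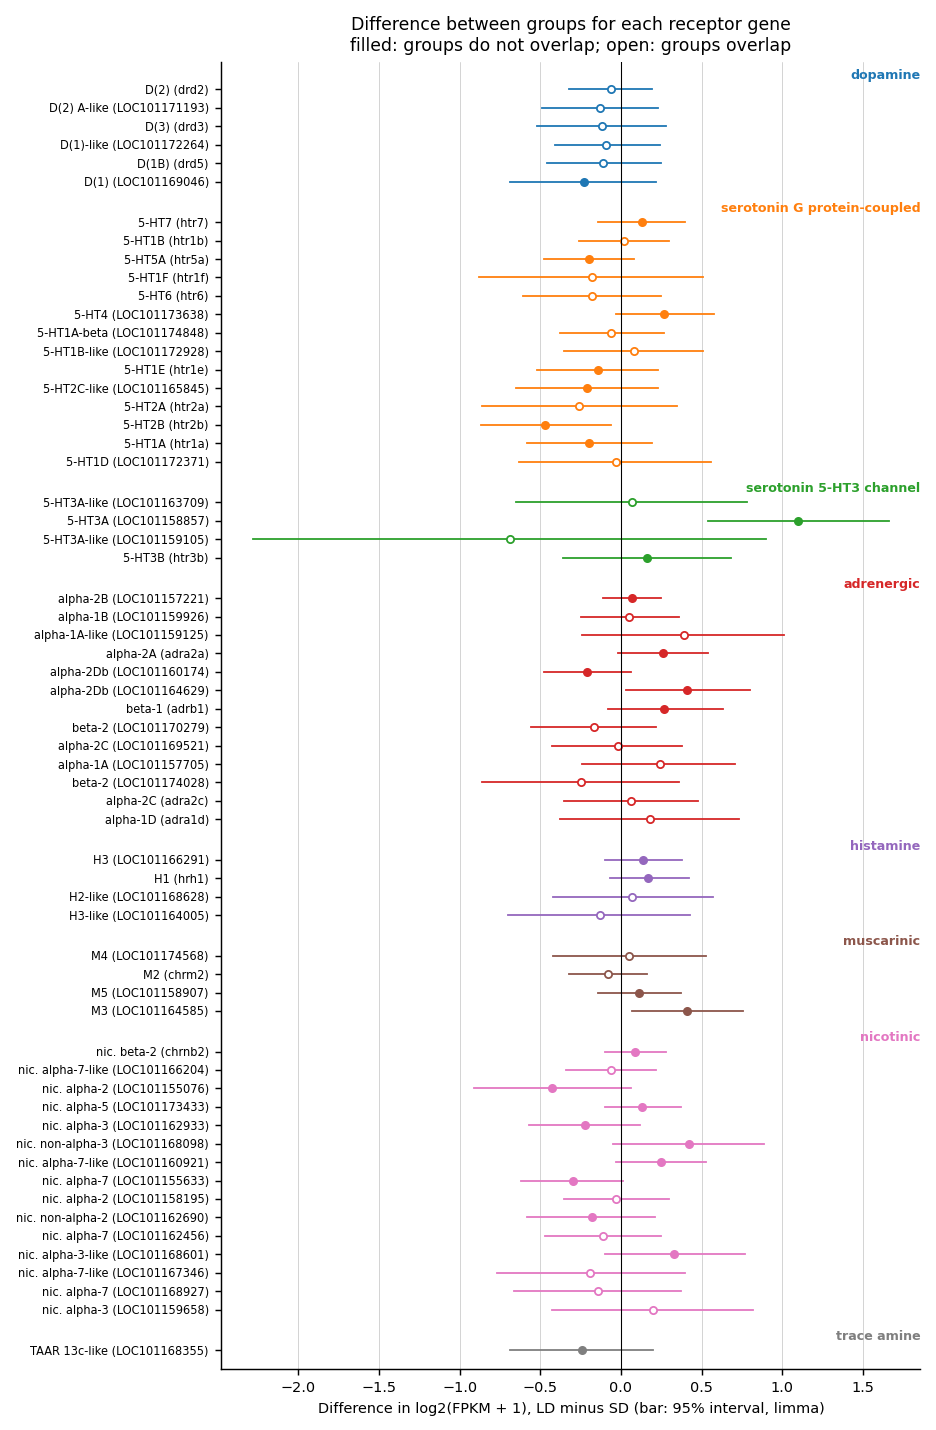
Difference between group means in log2(FPKM + 1), LD minus SD, for the 61 receptor genes tested, with bars giving the 95% interval from limma. Filled points mark genes whose groups did not overlap (29) and open points the others, and the 5-HT3A gene LOC101158857 stands farthest from 0, at 1.10.

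Receptors were low next to other genes. Their median level was 3.72 FPKM, against 10.7 over everything tested, and 12 of the 61 lay above the latter. By mean level summed over rows, 12 receptors reached 10 FPKM, 13 lay between 5 and 10 and 36 between 1 and 5. Some reached 10 through the sum alone, such as LOC101159926, at 18.1 summed and 9.83 by its most abundant row. Summing the rows of a gene inflates genes that the table splits into several rows, so levels of different genes were ordered by the most abundant row of each, which is a value per length. The muscarinic M4 gene LOC101174568 came first, at 31.2 FPKM in SD 1 and 41.2 in SD 2, against 32.7 in LD 1 and 43.4 in LD 2.

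The nicotinic beta-2 gene chrnb2 (25.7 to 29.7 FPKM by its most abundant row) and the alpha-2B adrenergic gene LOC101157221 (24.9 to 26.8) followed, and their ranges overlapped. Next came the nicotinic alpha-2 gene LOC101155076 (14.0 to 22.9) and the alpha-7-like gene LOC101166204 (14.5 to 16.7), which also overlapped. The D(2) dopamine receptor gene drd2 (11.4 to 13.1), the muscarinic M2 gene chrm2 (10.6 to 12.3) and the alpha-2A gene adra2a (9.02 to 12.3) formed the next group, again with overlapping ranges.

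**Figure D2:**
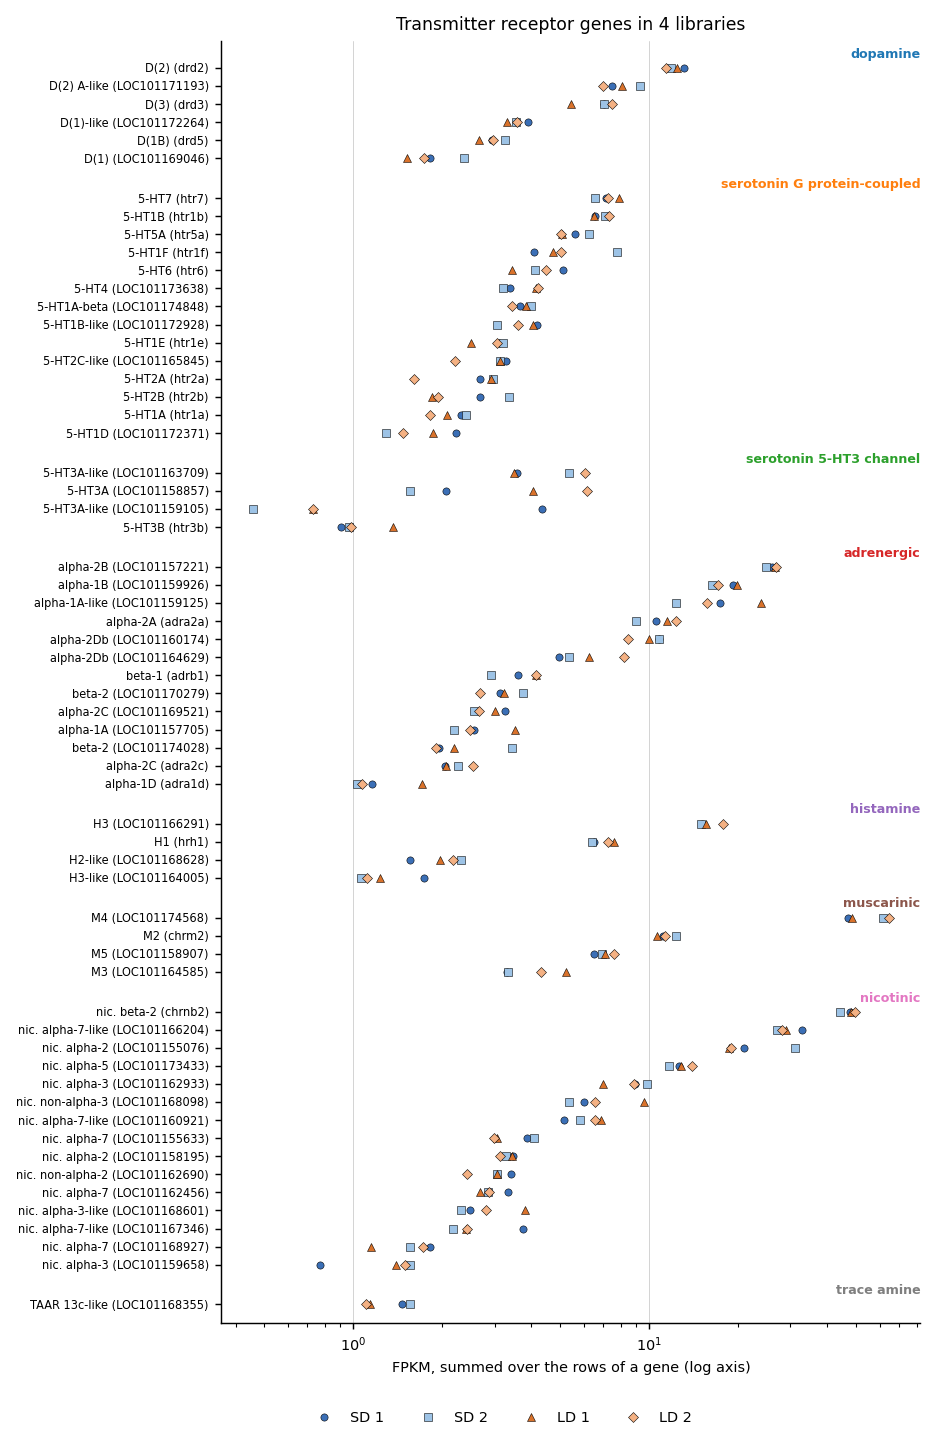
FPKM of the 61 receptor genes tested in each of the 4 libraries, summed over the rows of a gene, on a log axis and grouped by transmitter. Circles and squares mark the SD libraries, and triangles and diamonds the LD libraries. The groups overlap for 32 genes and do not for 29. Among the latter, LOC101158857 has both LD values, 4.04 and 6.15, above both SD values, 2.06 and 1.56.

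All receptors together summed to 472 FPKM in SD 1 and 479 in SD 2, against 477 in LD 1 and 486 in LD 2. These sums are dominated by the most abundant genes and are given without a test. The sums for dopamine receptors and for the G protein-coupled serotonin receptors were lower in both LD libraries than in both SD libraries. Those for histamine receptors were higher in both, and the nicotinic and trace amine sums were lower in both. For adrenergic, muscarinic and 5-HT3 receptors the groups overlapped or met.

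**Figure D3:**
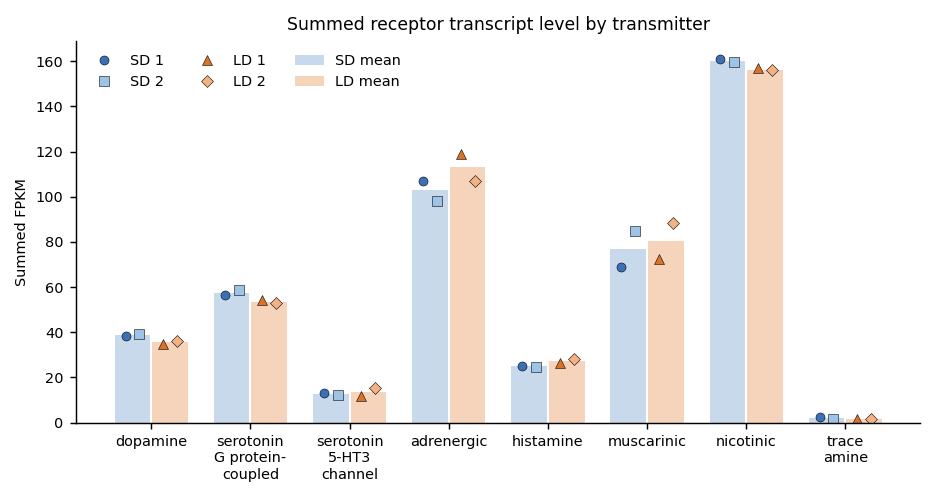
Summed FPKM of all receptor genes of a transmitter, with a symbol for each library and bars for the mean of each group of 2 libraries. The nicotinic sum was the highest, at 156 to 161 FPKM, and the trace amine sum the lowest, at 1.64 to 2.42, and no class differed between groups by more than 1.10-fold upward or 0.794-fold downward.

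Dopamine receptors had slightly lower means in LD in every tested gene, and none of the differences passed the test. Of everything tested, 53.7% had a difference below 0. The sum over the 11 genes was 38.2 FPKM in SD 1 and 39.1 in SD 2, against 35.0 in LD 1 and 36.1 in LD 2, an LD over SD ratio of 0.920. Differences of the 6 tested genes ran from -0.06 to -0.23, with a median of -0.11. For 1 of them SD and LD did not overlap, where 37.1% of everything tested did not, and the difference between groups exceeded both differences within groups for 0 of them.

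The most abundant was drd2 (chromosome 13, 15642462 to 15649312, minus strand, coordinates as in the deposited table), the D(2) receptor that inhibits adenylate cyclase. Its values were 13.1 FPKM in SD 1 and 11.8 in SD 2, against 12.4 in LD 1 and 11.4 in LD 2. Ranked by level, SD and LD libraries alternated, and the difference was -0.06 (SE 0.10, limma adjusted p = 0.924). A second gene of this type, LOC101171193, D(2) A-like, stood at 7.46 and 9.29 FPKM in SD and at 8.07 and 6.99 in LD. For drd3, which encodes the D(3) receptor, the SD libraries were at 7.02 and 7.04 FPKM and the LD libraries at 5.46 and 7.46, so that LD held both the lowest and the highest value. The sign of these 3 differences rested on single libraries, since it turned to 0.01 for drd2 without SD 1, to 0.01 for LOC101171193 without SD 2 and to 0.07 for drd3 without LD 1.

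Genes of the D1 family were lower in level. The D(1)-like gene LOC101172264 was at 3.90 and 3.54 FPKM in SD and at 3.31 and 3.57 in LD. The D(1) gene LOC101169046 (chromosome 10, 20397261 to 20398379, plus strand) was at 1.82 and 2.37 FPKM in SD and at 1.52 and 1.73 in LD. Of the tested dopamine receptor genes, LOC101169046 was the one whose groups did not overlap, with both LD libraries lower. Its difference was -0.23 (SE 0.18, limma adjusted p = 0.840), or -0.36 without SD 1 and -0.11 without SD 2. The 5 dopamine receptor genes below the limit, among them 3 D(4)-like genes chosen for mention after their values were seen, had no single value above 0.948 FPKM.

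For serotonin, 14 of the 15 G protein-coupled receptor genes were tested, 10 with lower and 4 with higher means in LD. The difference was below 0 for 53.7% of everything tested. Their sum was 56.3 FPKM in SD 1 and 58.6 in SD 2, against 54.3 in LD 1 and 52.9 in LD 2, a ratio of 0.933. SD and LD did not overlap in 7 of them, where 37.1% of everything tested did not. Of the 14 tested, 5 were lower and 2 higher in both LD libraries, beside 20.8% and 16.3% of everything tested. The median difference was -0.16. None passed the test over all genes.

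The lowest unadjusted p belonged to htr2b (chromosome 4, 12651560 to 12659817, plus strand), which encodes 5-HT2B, a receptor that acts through phospholipase C. It was at 2.69 FPKM in SD 1 and 3.35 in SD 2, against 1.85 in LD 1 and 1.94 in LD 2. Both LD libraries lay below both SD libraries, and the gap between the group means was wider than either gap within a group. Means were 3.02 ± 0.464 FPKM in SD and 1.90 ± 0.0671 in LD (SD, n = 2 libraries each), a ratio of 0.628. The difference was -0.47 (SE 0.16, 95% interval -0.87 to -0.06), with a limma adjusted p = 0.789. With 1 library left out at a time the difference stayed below 0, from -0.59 to -0.35.

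The other 5-HT2 genes are named here because of their family, after their values were seen. Those of htr2a, for 5-HT2A, were 2.68 and 2.96 FPKM under SD against 2.93 and 1.60 under LD, and those of the 5-HT2C-like gene LOC101165845 were 3.29 and 3.12 in SD and 3.12 and 2.20 in LD. LD 2 was the lowest library for both, and the LD 1 values lay within or at the edge of the SD range. The 5-HT2 sum was 8.66 FPKM in SD 1 and 9.43 in SD 2, against 7.90 in LD 1 and 5.74 in LD 2, with both LD libraries below both SD libraries.

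In the other direction stood LOC101173638 (chromosome 10, 28422979 to 28478649, minus strand), a gene for 5-HT4, which stimulates adenylate cyclase. Its libraries were at 3.38 and 3.20 FPKM in SD and at 4.13 and 4.22 in LD. The groups did not overlap and libraries of a group lay close together, and the difference was 0.27 (SE 0.12, limma adjusted p = 0.793). By the level summed over rows, htr7, htr1b, htr5a and htr1f were the 4 highest of these genes. By the most abundant row htr5a was lower than LOC101173638. For htr7, whose product stimulates adenylate cyclase, SD libraries were at 7.14 and 6.57 FPKM and LD libraries at 7.92 and 7.26.

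The gene htr5a, for the inhibitory 5-HT5A receptor, was at 5.61 and 6.25 FPKM in SD and at 5.06 and 5.03 in LD. These values are sums over its rows, and in each row above 0 the groups overlapped. The most abundant row was at 3.52 and 3 FPKM in SD and at 3.1 and 2.54 in LD. The next row was at 2.09 and 3.25 in SD and at 1.97 and 2.49 in LD. By the summed level, both LD libraries of htr5a were lower and both of htr7 higher. The differences were -0.20 (SE 0.11, limma adjusted p = 0.807) and 0.13 (SE 0.10, limma adjusted p = 0.848). Without SD 2 they were -0.13 and 0.08, and without LD 1 that of htr7 was 0.07. The values of htr1b, for 5-HT1B, a receptor found on nerve endings, were 6.54 and 7.10 FPKM in SD and, in LD, 6.53 and 7.33, and the groups overlapped. For htr1f, of the same inhibitory family, SD 2 stood apart at 7.77 FPKM, against 4.07 in SD 1, 4.73 in LD 1 and 5.04 in LD 2. Its difference was -0.18 with SD 2 and 0.21 without it. The tested genes of the class not named here lay between 1.29 and 5.12 FPKM in single libraries.

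The 5-HT3 channel genes held the receptor with the largest difference, and it did not pass the test over all genes. LOC101158857 (chromosome 8, 1099180 to 1104088, plus strand), described as 5-HT3A, was at 2.06 FPKM in SD 1 and 1.56 in SD 2, against 4.04 in LD 1 and 6.15 in LD 2. LD exceeded SD in every pairing of libraries. The group means were 1.81 ± 0.348 FPKM in SD and 5.09 ± 1.49 in LD (SD, n = 2 libraries each), a ratio of 2.82. The difference was 1.10 (SE 0.22, 95% interval 0.54 to 1.66), against a gap of 0.25 between the SD libraries and 0.50 between the LD libraries. The limma adjusted p was 0.673. Leaving out 1 library at a time gave differences of 0.85 to 1.35.

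Beside it on chromosome 8 lies LOC101159105 (1106523 to 1110596, minus strand), described as 5-HT3A-like. It was at 4.35 FPKM in SD 1 but at 0.459 in SD 2, 0.732 in LD 1 and 0.730 in LD 2. A single SD library was high, and its difference of -0.69 (SE 0.62, limma adjusted p = 0.863) became 0.25 without that library. The pair together summed to 6.41 FPKM in SD 1 and 2.02 in SD 2, against 4.77 in LD 1 and 6.88 in LD 2, so that for the sum the groups overlapped. No source used here says whether reads were shared between these neighbours, and their sequences were not compared.

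**Figure D4:**
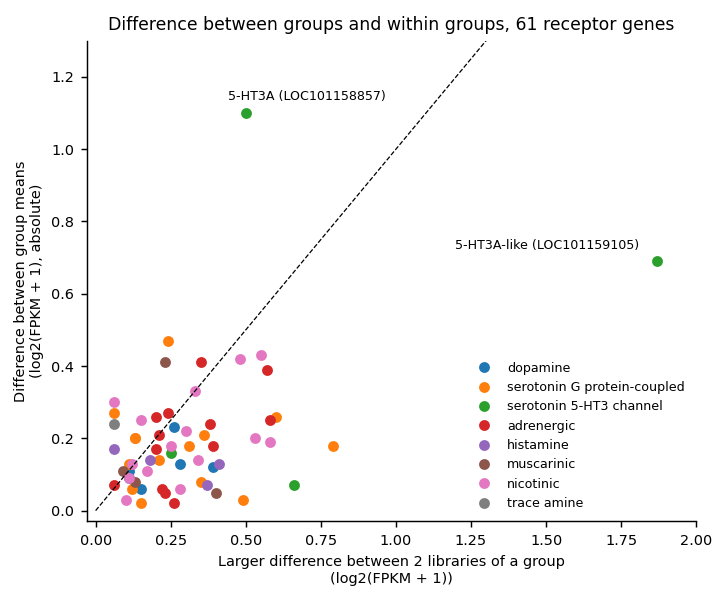
Absolute difference between group means against the larger of the differences between the 2 libraries of a group, both in log2(FPKM + 1), for each of the 61 receptor genes, coloured by transmitter. Points above the dashed line of equality are the 18 genes whose groups differed by more than libraries within a group. LOC101158857 lies far above the line at 1.10 against 0.50, and LOC101159105 far below it at 0.69 against 1.87.

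Of the other tested 5-HT3 genes, LOC101163709, 5-HT3A-like on chromosome 19 (13668800 to 13686179, plus strand), was at 3.58 and 5.34 FPKM in SD and at 3.49 and 6.08 in LD. The first libraries of both groups were low and the second high. The gene htr3b on chromosome 14, for the 5-HT3B subunit, was at 0.909 and 0.966 FPKM in SD and at 1.36 and 0.985 in LD. LOC101163709 sits in a row of 9 5-HT3 genes that spans 254 kb, and it was the one of them that reached a mean of 1 FPKM. A neighbour in that row, LOC101164451, was below the limit and is named after its values were seen: it was at 0.668 FPKM in SD 1 and 2.0 in SD 2, while LD 1 and LD 2 were listed at 0. Within the span of these 9 genes, a further row of the table stayed separate, since its hit, LOC101163222, lies elsewhere. That row was at 1.41 and 0.652 FPKM in SD and at 0.886 and 0.594 in LD, and was picked after its values were seen. With all rows sharing a gene name summed, 63 members were tested, in place of 62. Of the 16 channel genes, 9 were below the limit but above 0 and 3 were listed at 0 throughout. Over all 16 the sum was 13.1 FPKM in SD 1 and 12 in SD 2, against 11.8 in LD 1 and 15.1 in LD 2, and the groups overlapped.

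Of the 13 adrenergic receptor genes tested, 9 had higher and 4 lower means in LD, and none passed the test. The difference was below 0 for 53.7% of everything tested. The sum of the 17 genes was 107 FPKM in SD 1 and 97.9 in SD 2, against 119 in LD 1 and 107 in LD 2. The median difference was 0.07. The groups did not overlap for 5 genes (38.5%), close to the 37.1% of everything tested. Of the 13 genes, 4 were higher and 1 lower in both LD libraries, beside 16.3% and 20.8% of everything tested.

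Among alpha-2 receptors, which inhibit transmitter release and adenylate cyclase, the 2 genes described as alpha-2Db had differences of opposite sign. LOC101164629 (chromosome 3, 3950411 to 3964868, minus strand) was at 4.94 FPKM in SD 1 and 5.36 in SD 2, against 6.24 in LD 1 and 8.22 in LD 2. LOC101160174 (chromosome 10, 16511181 to 16515573, minus strand), named after its values were seen, was at 10.8, 10.8, 9.96 and 8.48 in the same order. The former was higher and the latter lower in both LD libraries, and LD 2 was the farthest from SD in both. The differences were 0.41 (SE 0.15, limma adjusted p = 0.789) and -0.21 (SE 0.11, limma adjusted p = 0.800), and whether the genes differed from each other was not tested. Without LD 2 the first of these was 0.24.

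The alpha-2A gene adra2a (chromosome 1, 36856043 to 36858074, plus strand) was at 10.5 and 9.02 FPKM in SD and at 11.5 and 12.3 in LD. Both LD libraries were higher, with a difference of 0.26 (SE 0.11, limma adjusted p = 0.793), or 0.16 without SD 2. LOC101157221, for alpha-2B, was the adrenergic gene with the highest level and varied little, at 26.0 and 24.9 FPKM in SD and at 26.6 and 26.8 in LD. The alpha-2 sum of 8 genes was 57.7 FPKM in SD 1 and 55.0 in SD 2, against 59.4 in LD 1 and 61.1 in LD 2, with both LD libraries above both SD libraries by a ratio of 1.07.

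Alpha-1 receptors, which raise intracellular calcium, had higher LD means in all 4 tested genes, yet SD and LD libraries overlapped in each. Of the 17252 genes and features tested, 7989 had a difference above 0. The alpha-1A-like gene LOC101159125 was at 17.3 and 12.3 FPKM in SD and at 23.8 and 15.7 in LD. For the alpha-1B gene LOC101159926 the values were 19.2 and 16.3 in SD and 19.8 and 17.1 in LD. In both genes the first library of each group was higher than the second, and SD 1 exceeded LD 2. The alpha-1 sum was 40.4 FPKM in SD 1 and 32.6 in SD 2, against 49.2 in LD 1 and 36.8 in LD 2. The 3 tested beta receptor genes had summed levels, with the untested one, of 8.98 to 10.3 FPKM in SD and 8.91 to 10.1 in LD.

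Histamine receptor genes summed to 25 FPKM in SD 1 and 24.8 in SD 2, against 26.4 in LD 1 and 28.3 in LD 2. The H3 gene LOC101166291 (chromosome 4, 3118422 to 3129158, minus strand), whose product limits histamine release from its own neurons, was at 15.1 and 15.0 FPKM in SD and at 15.6 and 17.8 in LD. The H1 gene hrh1 (chromosome 5, 9485778 to 9499066, minus strand), for an excitatory receptor linked to arousal in mammals, was at 6.52 and 6.42 in SD and at 7.61 and 7.26 in LD. By the summed level both LD libraries were higher for either gene, with SD libraries that nearly coincided. In the most abundant row of the H3 gene the groups overlapped, at 9.18 and 9.21 FPKM in SD and at 9.05 and 10.9 in LD. The differences of the H3 and H1 genes were 0.14 (SE 0.09, limma adjusted p = 0.822) and 0.17 (SE 0.09, limma adjusted p = 0.804). Neither passed the test. The H3 difference was 0.23 without LD 1 and 0.05 without LD 2. The H2-like gene LOC101168628, at 1.56 to 2.31 FPKM, and the H3-like gene LOC101164005, at 1.06 to 1.74, had overlapping groups.

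Muscarinic receptor genes were led by the M4 gene LOC101174568 (chromosome 2, 1077843 to 1127273, minus strand), an inhibitory receptor abundant in the mammalian striatum. Summed over its 5 rows it was at 47.0 FPKM in SD 1 and 61.5 in SD 2, against 48.4 in LD 1 and 64.4 in LD 2. The first library of each group was lower than the second and the group means nearly coincided, with a difference of 0.05 (SE 0.19, limma adjusted p = 0.972). That difference turned to -0.14 without SD 1 and to -0.15 without LD 2. It made up most of the muscarinic sum, which followed the same order at 69.1, 84.8, 72.3 and 88.5 FPKM.

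The M3 gene LOC101164585 (chromosome 15, 18175850 to 18177034, plus strand) encodes a receptor that acts through phospholipase C. It was at 3.31 FPKM in SD 1 and 3.32 in SD 2, against 5.22 in LD 1 and 4.30 in LD 2. The SD libraries were alike, and both LD libraries were higher. The difference was 0.41 (SE 0.13, 95% interval 0.07 to 0.76), with a limma adjusted p = 0.789. Leaving out 1 library at a time gave 0.30 to 0.53. The M2 gene chrm2 was at 11.1 and 12.3 FPKM in SD and at 10.6 and 11.3 in LD, and the M5 gene LOC101158907 at 6.50 and 6.95 in SD and at 7.10 and 7.63 in LD. Groups overlapped for M2 and did not for M5, whose difference was 0.11 (SE 0.10, limma adjusted p = 0.859), or 0.07 without SD 1 or without LD 2. The sole M1 gene, LOC101171981, named as the whole of its type, was below the limit, at 0.141 FPKM in SD 1 and 0.0426 in SD 2, while LD 1 and LD 2 were listed at 0.

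Nicotinic subunit genes gave the largest sum, 161 FPKM in SD 1 and 159.5 in SD 2, against 157 in LD 1 and 156 in LD 2, a ratio of 0.977. Of 15 tested genes 6 had higher and 9 lower means in LD, where 53.7% of everything tested had a difference below 0. The median difference was -0.06. SD and LD did not overlap in 9 of them, where 37.1% of everything tested did not. Of the 15 tested, 5 were higher and 4 lower in both LD libraries, beside 16.3% and 20.8% of everything tested. None passed the test. The structural subunit gene chrnb2 (chromosome 16, 18276356 to 18299819, plus strand), for beta-2, was at 47.8 and 44.1 FPKM in SD and at 48.2 and 49.7 in LD, summed over its rows. Both LD libraries were above SD by a small amount. The difference was 0.09 (SE 0.07, limma adjusted p = 0.849), or 0.15 without SD 1 and 0.03 without SD 2. The rows of chrnb2 were not alike. Its most abundant row was at 25.9 and 25.7 FPKM in SD and at 29.7 and 29.4 in LD. In a shorter row the groups overlapped, at 21.8 and 18.3 in SD and at 18.5 and 20 in LD.

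Several genes are described as alpha-7, a subunit known in mammals to form channels by itself. The most abundant, LOC101166204 (alpha-7-like), was at 32.9 and 27.0 FPKM in SD and at 29.0 and 28.1 in LD, with overlapping groups. A less abundant one, LOC101155633 (chromosome 16, 18614414 to 18620866, minus strand), was at 3.87 FPKM in SD 1 and 4.08 in SD 2, against 3.07 in LD 1 and 2.98 in LD 2. Libraries of a group were close and LD was the lower group, with a difference of -0.30 (SE 0.12, 95% interval -0.62 to 0.01, limma adjusted p = 0.789). Another alpha-7-like gene, LOC101160921, named after its values were seen, went the other way. It was at 5.16 and 5.83 FPKM in SD and at 6.88 and 6.54 in LD, a difference of 0.25 (SE 0.11, limma adjusted p = 0.794). The tested alpha-7 genes not named here had overlapping groups.

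The alpha-2 gene LOC101155076 (chromosome 24, 1241322 to 1248495, plus strand) was at 20.9 FPKM in SD 1 and 31.2 in SD 2, against 18.6 in LD 1 and 18.9 in LD 2. SD 2 stood above the other 3 libraries. The difference was -0.43 (SE 0.19, limma adjusted p = 0.794) and became -0.15 without SD 2 and -0.70 without SD 1. The alpha-5 gene LOC101173433, an accessory subunit, was at 12.6 and 11.7 FPKM in SD and at 12.8 and 13.9 in LD. LOC101168098, a subunit described as non-alpha-3, was at 6.01 and 5.37 in SD and at 9.58 and 6.58 in LD, a difference of 0.42 (SE 0.18, limma adjusted p = 0.793) in which LD 1 was the high library. That difference was 0.18 without LD 1 and 0.66 without LD 2.

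Nicotinic genes lay in 3 groups of neighbours on the chromosomes, taken as genes less than 200 kb apart. On chromosome 1 (34312370 to 34495440) 2 of 3 tested neighbours had higher values in LD, and on chromosome 3 (28215539 to 28313426) 2 of 2 did. On chromosome 10 (13751134 to 13852833) 3 of 3 had lower values. Of everything tested, 53.7% had a difference below 0. In each group of neighbours, a tested gene had overlapping SD and LD libraries. None of these genes passed the test, and neighbours of similar sequence may share reads.

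Trace amine-associated receptors were mostly at or near 0 in these libraries. In fish most of this family are receptors of the olfactory epithelium. Of 24 genes, 17 were listed at 0 in all libraries, 6 were below the limit with no single value above 0.734 FPKM, and 1 was tested. That gene, LOC101168355 (13c-like, chromosome 3, 17829233 to 17836404, plus strand), was at 1.46 and 1.56 FPKM in SD and at 1.14 and 1.10 in LD. Both LD libraries were lower, with a difference of -0.24 (SE 0.17, limma adjusted p = 0.834). The family's 3 rows of neighbours, with 8 and 7 genes on chromosome 21 and 6 on chromosome 24, held no tested gene.

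The kinase grk3, which phosphorylates activated G protein-coupled receptors, was at 41.5 and 46.7 FPKM in SD and at 41.5 and 43.8 in LD. Its groups overlapped, and the difference was -0.05 (SE 0.09, limma adjusted p = 0.935). It is left out of all receptor sums and counts.

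Genes that make, store, clear and relay these transmitters were read beside the receptors. Those named here and below were picked after their values were seen. Of 48 such genes, 36 were tested, of which 15 had higher and 21 lower values in LD. Their median difference was -0.02, and 53.7% of everything tested had a difference below 0. By limma 0 of them passed the adjusted threshold and 4 had an unadjusted p under 0.05, beside 6.32% of everything tested. In the packaging and uptake list 4 of 5 tested genes were lower in both LD libraries than in both SD libraries, beside 20.8% of everything tested. Among them the serotonin transporter gene LOC101156825 had SD 1 and LD 1 both at 13.7 FPKM as rounded. The median of the list was -0.29, against -0.01 for synthesis, 0.01 for breakdown and -0.01 for signal transfer.

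The dopamine transporter gene slc6a3, which returns dopamine to the nerve ending, was at 34.1 FPKM in SD 1 and 31.5 in SD 2, against 27.9 in LD 1 and 25.5 in LD 2. The vesicular amine transporter gene slc18a2, which loads vesicles with amines, was at 52.3, 48.2, 44.3 and 40.4 FPKM in the same order. For the noradrenaline transporter gene slc6a2 the values were 7.74, 8.38, 4.95 and 6.64. In these 3 genes both LD libraries were lower. Differences were -0.29 (SE 0.08) for slc6a3, -0.24 (SE 0.08) for slc18a2 and -0.42 (SE 0.15) for slc6a2, and each had a limma adjusted p = 0.789.

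The gene th, for tyrosine hydroxylase, the rate-limiting enzyme of dopamine synthesis, was at 21.2 and 20.7 FPKM in SD and at 18.8 and 15.6 in LD. Its difference was -0.28 (SE 0.11, limma adjusted p = 0.789), with both LD libraries lower. The second tyrosine hydroxylase gene of fish, th2, was at 20.9 and 22.3 in SD and at 21.6 and 24.6 in LD, and its groups overlapped. Another synthesis gene, pnmt (phenylethanolamine N-methyltransferase), was low and higher in both LD libraries. It was at 0.935 and 0.821 FPKM in SD and at 1.46 and 1.5 in LD, a difference of 0.40 (SE 0.18, limma adjusted p = 0.794). For the serotonin transporter gene LOC101156825, SD 2 was high at 23.1 FPKM, against 13.7 in SD 1, 13.7 in LD 1 and 12.9 in LD 2.

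The serotonin-synthesis gene tph2 was at 4.84 and 2.84 FPKM in SD and at 6.41 and 2.56 in LD, and tph1 at 16.3 and 14.6 in SD and at 18.6 and 12.6 in LD. LD held both the highest and the lowest value of either gene. Acetylcholinesterase, which splits acetylcholine, was abundant and even, at 139 and 129 FPKM in SD and 139 in both LD libraries. The acetylcholine-synthesis gene LOC101173179 (choline O-acetyltransferase) was at 0.843 to 1.40 FPKM, and both genes for the vesicular acetylcholine transporter were at or near 0. Of the genes that relay receptor signals, 14 were tested, and the receptor kinase gene grk4 was the one with an unadjusted limma p under 0.05. It was at 35.6 and 36.3 FPKM in SD and at 41.5 and 40.5 in LD, a difference of 0.19 (SE 0.07, limma adjusted p = 0.789).

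**Figure D5:**
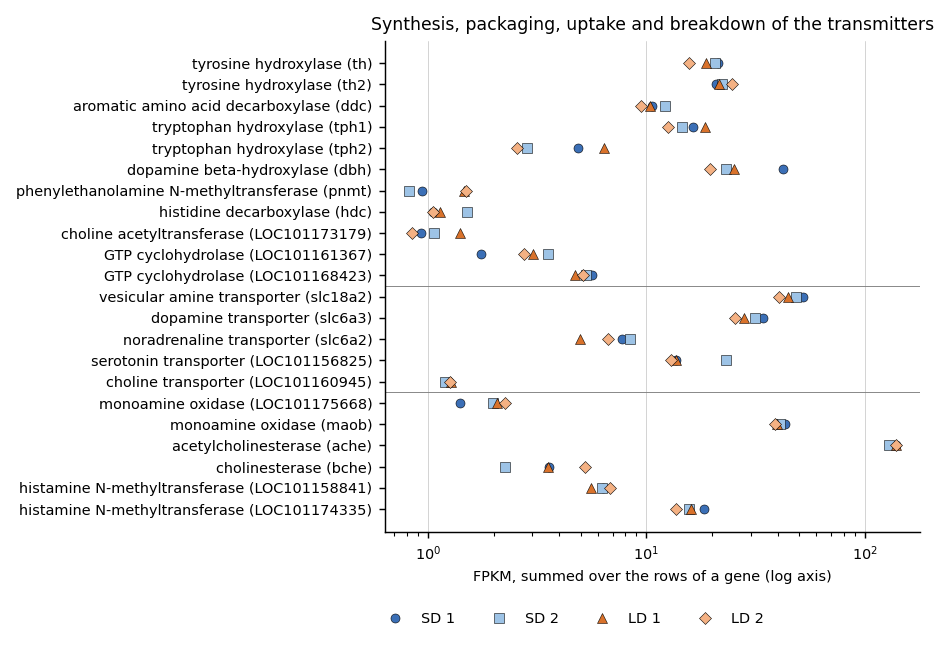
FPKM in each of the 4 libraries of the tested genes for synthesis (top), packaging and uptake (middle) and breakdown (bottom) of the amine transmitters and acetylcholine, summed over the rows of a gene, on a log axis. For slc18a2, slc6a3 and slc6a2 both LD libraries lie to the left of both SD libraries, while acetylcholinesterase lies at 129 to 139 FPKM in all of them.

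Markers of the dissected tissue differed between the libraries beside these values. Pituitary cell markers summed to 6973 FPKM in SD 1 and 7331 in SD 2, against 4046 in LD 1 and 5544 in LD 2. Prolactin-1 was the largest term of that sum in every library: 3899.6 (SD 1), 3743 (SD 2), 1825 (LD 1), 3536 (LD 2). Of 13 tested genes, 10 had lower means in LD, where 53.7% of everything tested had a difference below 0. Both LD libraries lay below both SD libraries for 6 of the 13, beside 20.8% of everything tested. The others overlapped, among them pomc and cga. Somatotropin alone was past the limma threshold. Myelin markers summed to 1027, 973, 1614 and 797 FPKM in the same order, highest in LD 1, and neuronal markers to between 2066 and 2150.3. Markers of hypothalamic neurons summed to 245, 460.5, 539 and 461 FPKM, lowest in SD 1, and telencephalon markers to 127, 108, 108 and 111. Astroglial markers summed to 1749, 1753, 1736 and 1629 FPKM and microglial markers to 85.9, 133, 127 and 65.9. Red blood cell markers summed to 6085, 8368, 9129.8 and 7412 FPKM. The list for habenula, midbrain, hindbrain and raphe summed to between 7.54 and 11.7 FPKM, with pou4f1, gng8 and en1 below 0.5 FPKM. The rest of that list was higher, with en2 at 1.47 to 1.75 FPKM, fev at 2.81 to 5.34 and tph2 at 2.56 to 6.41. The part of any of these in the receptor values was not tested. Library totals were close, with 458696.5 to 463065.7 FPKM in all and 22556 to 22869 rows of the table at 1 FPKM or more.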

How the data were processed

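The authors deposited 1 table of FPKM values with a column per library, per the file headers. Per the submitters' processing notes, the tools were HISAT2 2.0.5 and StringTie 1.3.3b, with no roles stated, and libraries were made with a TruSeq stranded mRNA kit per the labels' protocols. No genome build is named in these sources, and coordinates are the span of a gene's rows in the deposited table. The table gives no read totals, so counting error is not given and no count test was used.

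Each of 93896 rows carries a BLAST hit or none (52142 with one). A row took the gene name of its hit where the hit's location overlapped the row (46410, 89.0%), and FPKM of rows sharing a name were summed, giving 68193 units. Of 266 rows with the chosen phrases, 29 had hits elsewhere and stayed separate. Every member name matched RefSeq's genes for assembly ASM223467v1, which served for names alone. Reads shared by near-identical paralogs cannot be told apart.

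Units with a mean of at least 1 FPKM (17252) were tested with limma 3.58.1 in R 4.3.3 on log2(FPKM + 1), a scale that understates changes of low genes. The fit had group as its only term, two-sided p-values, a trend of variance on level, Benjamini-Hochberg adjustment and a threshold of 0.05. It was checked on simulated data. Tables were handled with Python 3.11.15 and pandas 2.3.3. Named genes were, in each class, any past the threshold, the 4 of highest mean level and the 2 of lowest unadjusted p, and a gene below the filter where it was the whole of a type. Other members are marked as chosen after their values were seen. No such rule was set for the pathway and marker lists, and the genes named from them were picked with their values known. The members, lists and tests were chosen with earlier results of these data known. Alternatives left out each library and varied the replicate term, pseudocount, filter, variance model, scaling and row summing.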

Additional observations from a re-analysis of the deposited data

How the results depend on the processing

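With 2 libraries per group, small changes of low receptors could not be tested with precision. The count of members past the threshold was 0 under all 14 alternatives, 1 of which (a length-weighted mean over the rows of a gene) was chosen after seeing the data. Among the members the lowest limma adjusted p under any alternative was 0.261. The count at an unadjusted p under 0.05 ran from 1 to 7. The labels do not say whether libraries of the same number belong together. Deviations of same-numbered libraries correlated at r = 0.023 over 17252 units, which does not show whether some genes share such a pairing. With the replicate number as a block, 0 members passed and 7, in place of 4, had an unadjusted p under 0.05.

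Members whose groups did not overlap numbered 41 to 51 of 62 with 1 library left out. The share of everything tested whose groups did not overlap was then 67.8% to 70.3%. At a mean of at least 5 FPKM the groups did not overlap for 15 of 26 members and for 37.8% of everything tested. Leaving out 1 library at a time, the log2 ratio of summed FPKM ran from -0.09 to 0.27 for 5-HT3 genes, from -0.09 to 0.22 for muscarinic receptors, from 0.06 to 0.21 for adrenergic receptors, from 0.09 to 0.19 for histamine receptors and from -0.54 to -0.09 for trace amine receptors. For nicotinic genes it was -0.05 with all rows of a name summed and -0.02 with upper quartile scaling.

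Of 36 named genes, 23 kept their direction under each alternative that gave them a value and 13 did not, 12 of them only where a library was left out. These were 12 or 13 alternatives per gene, since unsummed rows give no value per gene and the filter at 5 FPKM removed 13 of the 36. The lowest and highest differences of the 13 that turned, without 1 library, were -0.14 and 0.01 for drd2, -0.27 and 0.01 for LOC101171193, -0.31 and 0.07 for drd3, -0.05 and 0.09 for htr1b, -0.58 and 0.21 for htr1f, -0.26 and 0.39 for LOC101163709, and -1.63 and 0.25 for LOC101159105. They were -0.06 and 0.17 for LOC101159926, -0.11 and 0.26 for LOC101168628, -0.34 and 0.07 for LOC101164005, -0.15 and 0.25 for LOC101174568, -0.20 and 0.08 for LOC101166204, and -0.13 and 0.04 for grk3. LOC101163709 was also at -0.05 with the length-weighted mean, and the cause was not tested.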
